A study of Homo sapiens with 9 samples.

Results

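The levels of 10 transcription factor genes were followed in MDA-MB-231, a long-established line of triple-negative breast cancer, with vehicle (DMSO), with rimonabant and with TXX-1-10. The genes are JUN, JUNB, JUND, FOSL1, FOSL2, KLF4, KLF6, KLF10, EGR1 and MYC, and were taken by their symbols from the deposited lists, where all 10 were found in each of the 9 libraries. They are 10 of the 4237 genes listed for all 9 libraries, and the longest list names 27615 genes. Rimonabant blocks the cannabinoid receptor CB1, TXX-1-10 is derived from it, and each treatment had 3 libraries of polyadenylated RNA. All groups were the same cell line with no other alteration named, and neither the dose nor the time of exposure behind the libraries is given in the sources used here. The labels do not say that replicates came from separate cultures, so p-values measure only the spread between these libraries, which may be technical. A level measured in bulk RNA cannot tell a shift in every cell from a shift in the share of cells that express the gene.

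AP-1 is a family of dimers built from JUN proteins with each other or with FOS-type partners, among them FOSL1 and FOSL2, and it binds short palindromic sites near genes of growth, migration and stress. JUN is the strong activator of the family, while JUNB and JUND are known as weaker activators that can counter JUN. EGR1, several KLF factors and MYC are, like many AP-1 genes, induced within minutes of growth factor or stress signals in many cells. FOSL1 is a known mark of mesenchymal, triple-negative breast cancer cells. KLF4 and KLF6 are zinc finger factors with roles in differentiation and growth arrest, KLF10 is an early gene of TGF-beta signalling, and MYC drives growth and ribosome production as a dimer with MAX.

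Promoters of 7 of the 10 genes were matched in the RefSeq promoter table (GRCh38.p14), each as 250 bases before the start and 50 after it, while FOSL1, KLF10 and MYC are not in it. All 7 were rich in G and C, from 62.0% in JUN to 77.0% in JUND, against a median of 58.7% over 35116 promoters of this length. The bases before the start of 4 genes are shown, because JUNB, JUND and KLF4 rose most under TXX-1-10 while EGR1 was called changed under both compounds. Capitals mark the motifs searched on both strands, and in KLF4 a GC box and an EGR motif overlap at the first run of capitals. The labels chr19.0, chr9.0 and chr5.0 stand for chromosomes 19, 9 and 5.
JUNB promoter, chr19.0:12791236-12791485, plus strand: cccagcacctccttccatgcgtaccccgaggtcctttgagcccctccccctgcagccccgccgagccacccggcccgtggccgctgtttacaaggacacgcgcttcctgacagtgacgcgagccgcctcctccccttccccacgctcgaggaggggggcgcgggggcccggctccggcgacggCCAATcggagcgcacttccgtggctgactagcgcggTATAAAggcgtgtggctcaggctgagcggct
JUND promoter, chr19.0:18281623-18281872, minus strand: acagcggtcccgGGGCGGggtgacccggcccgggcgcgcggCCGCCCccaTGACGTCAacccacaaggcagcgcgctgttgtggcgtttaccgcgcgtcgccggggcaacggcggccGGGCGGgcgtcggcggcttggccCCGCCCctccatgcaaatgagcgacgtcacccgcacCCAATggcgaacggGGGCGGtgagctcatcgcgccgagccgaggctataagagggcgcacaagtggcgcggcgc
KLF4 promoter, chr9.0:107489770-107490019, minus strand: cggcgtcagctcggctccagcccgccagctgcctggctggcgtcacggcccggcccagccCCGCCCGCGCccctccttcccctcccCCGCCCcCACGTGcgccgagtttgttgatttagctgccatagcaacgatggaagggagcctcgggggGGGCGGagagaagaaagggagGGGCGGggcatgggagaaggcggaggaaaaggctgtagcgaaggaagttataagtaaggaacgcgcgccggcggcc
EGR1 promoter, chr5.0:138465229-138465478, plus strand: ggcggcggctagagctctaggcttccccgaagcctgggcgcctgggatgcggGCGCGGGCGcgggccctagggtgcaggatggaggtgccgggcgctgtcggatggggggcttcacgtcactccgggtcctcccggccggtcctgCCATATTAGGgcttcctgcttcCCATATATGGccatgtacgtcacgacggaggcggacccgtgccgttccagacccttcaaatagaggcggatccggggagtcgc
EGR1 held 2 CArG boxes, the sequence that serum response factor binds, here with A or T at each inner base. This box was present in 1.29% of all promoters and in none of the other 6, and it was chosen after a looser form with any inner bases was found in 78.2% of promoters. JUND held the CRE sequence TGACGTCA, which 1.85% of promoters hold, and JUNB the TATA box TATAAA, which 11.5% hold. An EGR motif, GCGNGGGCG, was present in KLF4, KLF6 and EGR1 against 9.43% of all promoters, and the E-box CACGTG in KLF4 and KLF6 against 7.26%. The AP-1 motif TGANTCA was found in FOSL2 and in 7.71% of promoters, lying just after the FOSL2 start. GC boxes, GGGCGG, were in 5 of the 7 against 45.0%, CCAAT boxes, CCAAT, in 4 against 34.6%, and the ATF4 and CHOP composite TGATGNAA in none of the 7 against 3.62%. A match describes the letters of the window and shows neither binding nor use.

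The library total behind the FPKM values (fragments per kilobase of gene, scaled to the depth of the library) was 17078370 to 17245379 reads under vehicle, 17477838 to 18813662 under rimonabant and 18394759 to 19277808 under TXX-1-10. In rimonabant replicate 1 and TXX-1-10 replicate 3, long genes had fewer counts than in the replicates beside them. The Spearman rho of this ratio with gene length was -0.693 and -0.692 across genes, which are not independent. Some fold changes of the factors are therefore also given without these libraries. The gene lists leave out only rimonabant replicate 1, and the group means of ratios and shares and the nearest genes keep both. Mitochondrial reads were 6.05% to 6.86% of the total under vehicle and rimonabant and 3.05% to 3.50% under TXX-1-10, and TMM scaling in place of the library totals turned no direction of the 10 factors. Markers of the line were expressed in all libraries, with VIM at 224 to 329 FPKM and MSN at 239 to 272, while other markers differed in level between the treatments. CAV1 was at 135 to 145 FPKM with vehicle, 47.2 to 49.7 with rimonabant and 20.8 to 22.9 with TXX-1-10, LGALS1 at 410 to 421, 220 to 287 and 148 to 191, AXL at 212 to 221, 182 to 195 and 124 to 129, and CD44 at 39.3 to 40.1, 46.1 to 48.2 and 27.4 to 27.9. The part of these markers in the results was not tested. Of the luminal markers, ESR1 and PGR reached at most 0.0459 FPKM in the 4 lists that run that far, GATA3 was at most 1.45 and FOXA1 at most 0.86 in 6 lists, EPCAM was 4.47 to 5.37 in 7 lists, TFF1 was in none, and CDH1 had a count of 0 in 4 lists, which allows up to 0.0284 FPKM. Such limits cover counting error only.

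In the deposited GRCh38 coordinates, JUN (ENSG00000177606) lies on chromosome 1 from 58780788 to 58784327, JUNB (ENSG00000171223) on chromosome 19 from 12791496 to 12793315 and JUND (ENSG00000130522) on chromosome 19 from 18279760 to 18281622. FOSL1 (ENSG00000175592) lies on chromosome 11 from 65892049 to 65900573, and FOSL2 (ENSG00000075426) on chromosome 2 from 28392448 to 28417312. KLF4 (ENSG00000136826) lies on chromosome 9 from 107484852 to 107490482, KLF6 (ENSG00000067082) on chromosome 10 from 3775996 to 3785281 and KLF10 (ENSG00000155090) on chromosome 8 from 102648779 to 102655902. EGR1 (ENSG00000120738) lies on chromosome 5 from 138465490 to 138469315 and MYC (ENSG00000136997) on chromosome 8 from 127735434 to 127741434. JUN and JUNB have a single exon in GENCODE release 29. JUNB is the only one of the 10 whose exons overlap those of another gene, an exon of HOOK2 on the opposite strand, and whether the counting used strand is not given in the sources used here. HOOK2 had 434 to 637 reads in the 8 lists that name it, against 700 to 3020 for JUNB in the same libraries.

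In vehicle-treated cells FOSL1 stood far above the other factors at 244 FPKM ± 9.23 (SD, n = 3) and ranked 99 among the 4236 genes tested. MYC followed at 74.1 ± 1.89 and JUN at 58.3 ± 1.17, then FOSL2 at 39.2 ± 0.606 and KLF6 at 29.0 ± 0.195. JUNB at 24.2 ± 1.78, JUND at 23.7 ± 1.93 and EGR1 at 23.0 ± 1.13 lay within the spread of their neighbours and could not be ordered. KLF10 at 18.1 ± 0.976 and KLF4 at 10.8 ± 1.07 were the lowest of the 10. FPKM is scaled to gene length, so these levels can be set against each other.

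The order was different after treatment. With rimonabant, EGR1 moved from place 8 to place 4 at 48.6 FPKM ± 3.81, JUN passed MYC, and FOSL2 fell to place 9, where its range overlapped that of KLF4. With TXX-1-10, KLF4 moved from place 10 to place 6 at 58.7 ± 1.42, FOSL2 became the lowest at 18.1 ± 1.63, and FOSL1 was still the highest at 290 ± 4.48. The ranges of MYC and JUN, of JUNB and JUND, and of EGR1 and KLF6 overlapped in TXX-1-10-treated cells. In all 3 groups FOSL1 was at least in the upper 3% of tested genes, with 97.7%, 97.3% and 98.3% of them below it under vehicle, rimonabant and TXX-1-10.

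**Figure D1:**
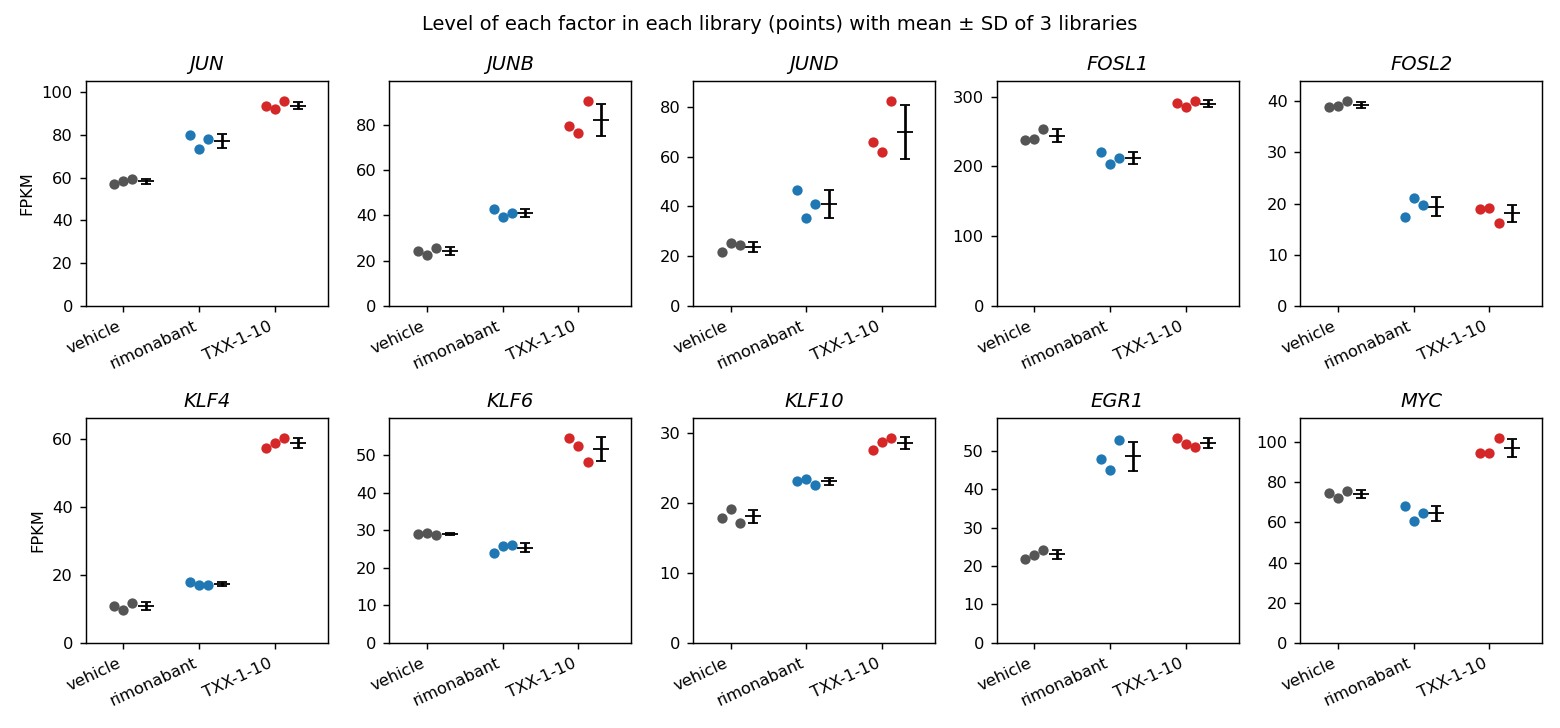
Each panel plots the FPKM (vertical axis, from 0) of a factor in the 9 libraries, with points for libraries and a bar for mean ± SD of the 3 libraries of a treatment (horizontal axis). KLF4 lies between 9.65 and 17.9 in the vehicle and rimonabant libraries and between 57.2 and 60.1 under TXX-1-10, while FOSL2 lies between 16.2 and 21.1 under either compound and between 38.8 and 39.9 under vehicle.

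Under TXX-1-10 all 10 factors differed from vehicle, 9 of them higher and FOSL2 lower (edgeR's quasi-likelihood test with Benjamini-Hochberg adjusted p under 0.05, called passing the test). Over all 4236 tested genes, 30.5% passed the test as higher and 43.8% as lower, and with TMM scaling these 1294 and 1857 genes became 1568 and 1570. Of the 10, JUNB, JUND, KLF4 and EGR1 were called changed upward, meaning a log2 fold change of 1 or more in size beside the adjusted p, and FOSL2 was changed downward, against 4.2% of all genes changed upward and 7.6% downward (178 and 322 genes, or 214 and 268 with TMM). The FPKM ranges of the TXX-1-10 and vehicle libraries did not overlap for any of the 10, as for 78.7% of all genes. The median log2 fold change of the 10 was 0.76, beside -0.09 over all tested genes.

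Rimonabant gave a split picture, with 6 factors passing the test as higher and 4 (FOSL1, FOSL2, KLF6 and MYC) as lower, against 23.7% and 25.2% of all genes. EGR1 was changed upward and FOSL2 downward, beside 0.519% and 0.614% of all genes. The ranges did not overlap between rimonabant and vehicle for any of the 10, as for 61.1% of all genes. The median log2 fold change was 0.38, against -0.02 over all genes.

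In the direct comparison of TXX-1-10 with rimonabant, 8 factors passed the test, all higher under TXX-1-10, and EGR1 and FOSL2 did not pass. Of all genes, 25.1% passed as higher and 39.4% as lower, a split that became 1381 higher and 1349 lower genes with TMM scaling in place of 1065 and 1667. JUNB, KLF4 and KLF6 were changed upward and none of the 10 downward, beside 1.58% and 4.34% of all genes. The ranges of the compounds did not overlap for 8 of the 10, as for 63.6% of all genes. The comparisons share their libraries and are not independent of each other, and since the doses and times are not given, this one sets these libraries side by side and not the compounds at matched doses.

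**Figure D2:**
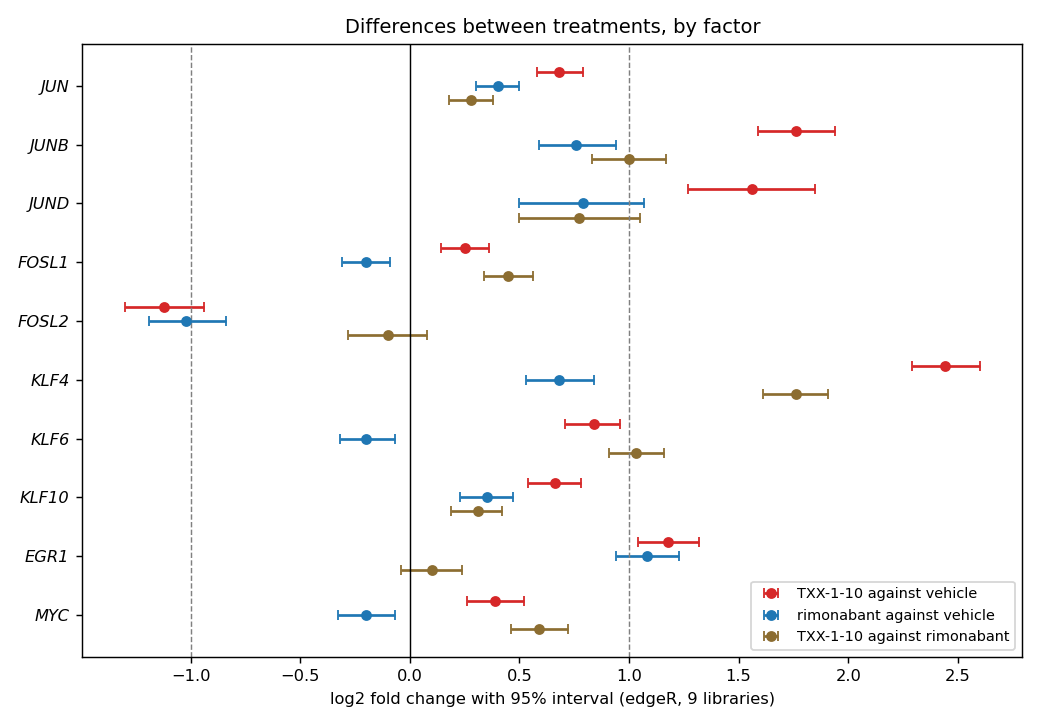
The log2 fold change (horizontal axis) of each factor (vertical axis) is drawn for the 3 comparisons as a point with its 95% interval from the edgeR fit of 9 libraries, with dashed lines at -1 and 1. TXX-1-10 lies to the right of rimonabant for all factors but FOSL2, and the intervals of TXX-1-10 against rimonabant include 0 for FOSL2 and EGR1.

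Of the JUN family, JUN was measured at 57.1, 58.4 and 59.4 FPKM under vehicle, at 79.7, 73.4 and 77.8 with rimonabant and at 93.3, 92.1 and 95.5 with TXX-1-10. The 3 groups were separate, with vehicle lowest and TXX-1-10 highest. The JUN level rose by 0.40 on the log2 scale under rimonabant (95% interval 0.30 to 0.50, adjusted p = 9.12e-05) and by 0.68 under TXX-1-10 (0.58 to 0.79, adjusted p = 3.86e-07). The compounds differed by 0.28 (0.18 to 0.38, adjusted p = 0.000373).

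JUNB, known to restrain JUN-driven growth in several cell types, stood at 24.3, 22.3 and 25.8 FPKM under vehicle, 42.7, 39.4 and 41.0 with rimonabant and 79.6, 76.5 and 90.2 with TXX-1-10. Every treated library was above every vehicle library, and the compounds were separate too. The rise was 0.76 under rimonabant (0.59 to 0.94, adjusted p = 4.17e-05) and 1.76, or 3.40-fold, under TXX-1-10 (1.59 to 1.94, adjusted p = 1.68e-08). Between the compounds the log2 difference was 1.0 (0.83 to 1.17, adjusted p = 1.51e-06), just at the fold threshold, and the call was lost at 0.93 without TXX-1-10 replicate 3, at 0.97 without rimonabant replicate 2, at 0.96 without both libraries that stand apart and with limma.

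JUND, a member of the family usually present at a steady level, gave 21.6, 25.3 and 24.3 FPKM under vehicle, 46.7, 35.3 and 40.8 with rimonabant and 66.0, 61.7 and 82.1 with TXX-1-10. The groups did not overlap, but JUND had the widest spread of the 10 under both compounds, with a coefficient of variation of 14.0% and 15.4%. Its highest libraries were the same 2 that stand apart by gene length, and JUND is among the shortest of the 10 genes at 1863 bases. The log2 fold change was 0.79 under rimonabant (0.50 to 1.07, adjusted p = 0.000785) and 0.68 without rimonabant replicate 1. Under TXX-1-10 it was 1.56 (1.27 to 1.85, adjusted p = 1.69e-06) and 1.43 without TXX-1-10 replicate 3. The compounds differed by 0.77 (0.50 to 1.05, adjusted p = 0.000342), and by 0.75 with both libraries left out.

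FOSL1, the FOS-type partner that is most abundant here, was at 238, 239 and 254 FPKM under vehicle, at 220, 203 and 212 with rimonabant and at 291, 285 and 293 with TXX-1-10. It was lower than vehicle in all rimonabant libraries and higher in all TXX-1-10 libraries. FOSL1 fell by 0.20 on the log2 scale under rimonabant (-0.31 to -0.09, adjusted p = 0.00768) and rose by 0.25 under TXX-1-10 (0.14 to 0.36, adjusted p = 0.00118). The compounds differed by 0.45 (0.34 to 0.56, adjusted p = 2.73e-05).

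FOSL2, the close relative of FOSL1, fell under both compounds. It gave 38.8, 39.0 and 39.9 FPKM under vehicle, 17.4, 21.1 and 19.7 with rimonabant and 18.9, 19.2 and 16.2 with TXX-1-10. FOSL2 was lower in every treated library than in any vehicle library, and the ranges of the compounds overlapped. The log2 fold change was -1.02 under rimonabant (-1.19 to -0.84, adjusted p = 9.49e-06) and -1.12 under TXX-1-10 (-1.30 to -0.94, adjusted p = 6.02e-07). Under rimonabant the value was -0.94 without replicate 1, which ends the call at the fold threshold, and under TXX-1-10 it was -1.04 without replicate 3. No difference between the compounds passed the test, with a log2 value of -0.10 and an interval from -0.28 to 0.08 (adjusted p = 0.292). In a fit of 8 libraries without rimonabant replicate 1 it was -0.17 (-0.33 to -0.02, adjusted p = 0.0554), and the ranges did not overlap. Over all alternatives this value ran from -0.17 to -0.01, and the smallest adjusted p was 0.0544.

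The balance within the family moved with these levels. JUN made up 54.9% ± 0.629 of the summed FPKM of JUN, JUNB and JUND under vehicle, 48.5% ± 1.24 with rimonabant and 38.2% ± 2.28 with TXX-1-10 (SD, n = 3). The JUNB share was 22.7% ± 1.48, 25.8% ± 0.695 and 33.4% ± 0.244, and the JUND share 22.3% ± 1.45, 25.7% ± 1.91 and 28.4% ± 2.04. Summed FPKM of the JUN genes was 106 ± 3.30, 159 ± 10.6 and 246 ± 19.6, while that of FOSL1 and FOSL2 was 283 ± 9.83, 231 ± 6.73 and 308 ± 3.35. The FOSL to JUN ratio of these sums was 2.67 ± 0.037 with vehicle, 1.46 ± 0.0549 with rimonabant and 1.26 ± 0.0881 with TXX-1-10. FOSL1 exceeded FOSL2 6.21-fold ± 0.139 with vehicle, 11.0-fold ± 1.53 with rimonabant and 16.1-fold ± 1.74 under TXX-1-10, with no overlap between the groups. This ratio sets a short gene over a long one and was highest in the libraries that stand apart by gene length. It was 12.7 in rimonabant replicate 1 beside 9.61 and 10.8, and 18.1 in TXX-1-10 replicate 3 beside 15.4 and 14.8. The JUND share was also highest there, at 27.6% beside 23.8% and 25.6%, and at 30.7% beside 27.6% and 26.8%. These are RNA shares, and protein and dimers were not measured in these files.

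**Figure D3:**
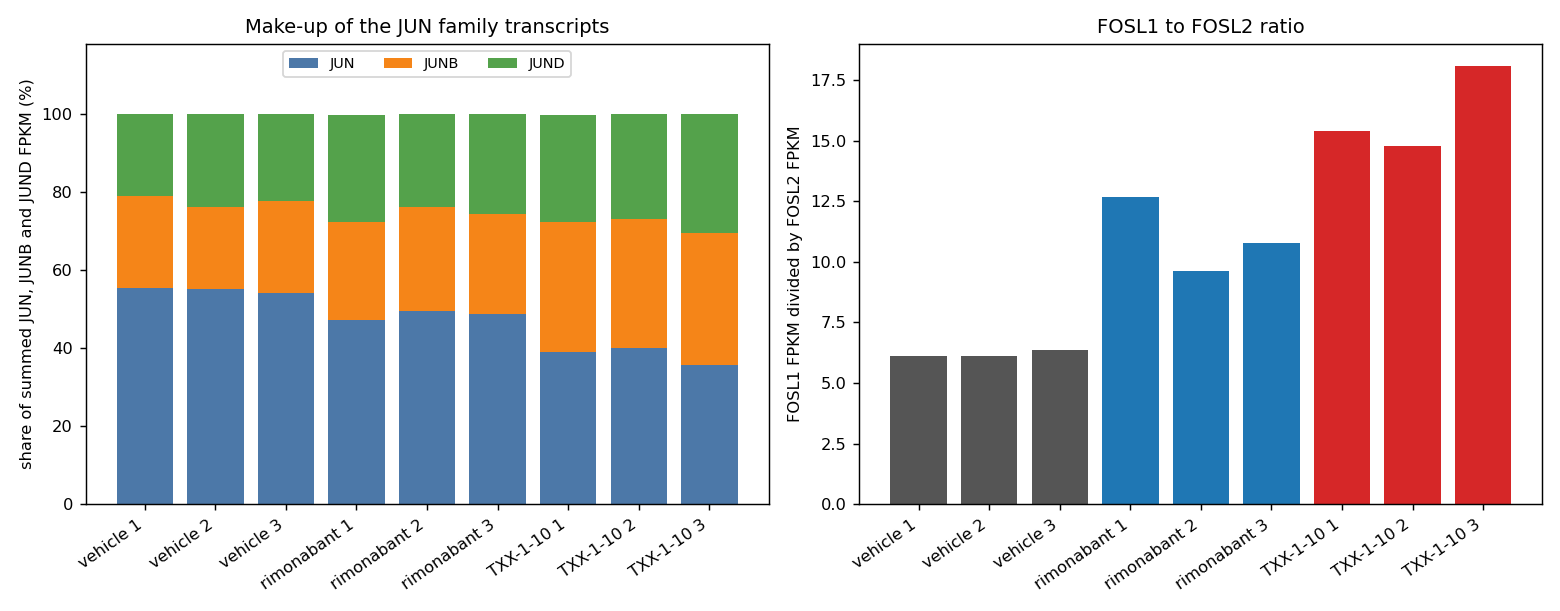
The left panel stacks the shares (%) of JUN, JUNB and JUND in their summed FPKM for each of the 9 libraries, and the right panel plots FOSL1 FPKM divided by FOSL2 FPKM (axis from 0) for the same libraries. The JUN share is 54.2% to 55.4% under vehicle and 35.7% to 40.0% under TXX-1-10, and the FOSL1 to FOSL2 ratio is 6.13 to 6.37 and 14.8 to 18.1.

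Among the zinc finger factors, KLF4 gave 10.9, 9.65 and 11.8 FPKM under vehicle, 17.9, 16.9 and 17.1 with rimonabant and 57.2, 58.8 and 60.1 with TXX-1-10. The TXX-1-10 libraries lay far above both other groups, which were themselves separate. The rise of KLF4 was 0.68 with rimonabant (0.53 to 0.84, adjusted p = 4.02e-05) and 2.44, or 5.44-fold, under TXX-1-10 (2.29 to 2.60, adjusted p = 9.23e-10). The difference between the compounds was 1.76 (1.61 to 1.91, adjusted p = 1.62e-08). Of the 233 tested genes that the lists assign to a transcription factor family, KLF4 had the highest log2 fold change under TXX-1-10, and JUNB ranked 4 and JUND 8. These ranks cover only genes listed for all 9 libraries. A fit of 8 libraries without rimonabant replicate 1 covers more genes. In it MXD1 was at 2.16, JDP2 at 2.01, KLF2 at 1.94, ATF3 at 1.92, MXD4 at 1.87 and KLF13 at 1.85. All of these were above JUNB at 1.76 and below KLF4 at 2.44 in that fit. Only factors of the gene lists given below were looked up there, so it gives no rank among all factors.

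KLF6 differed in direction between the compounds. It was at 28.9, 29.2 and 28.8 FPKM under vehicle, 23.9, 25.9 and 26.0 with rimonabant and 54.5, 52.4 and 48.2 with TXX-1-10. All rimonabant libraries were below and all TXX-1-10 libraries above the vehicle libraries. KLF6 fell by 0.20 under rimonabant (-0.32 to -0.07, adjusted p = 0.0158), where the p was 0.055 without vehicle replicate 2, and rose by 0.84 under TXX-1-10 (0.71 to 0.96, adjusted p = 3.45e-07). The compounds differed by 1.03 (0.91 to 1.16, adjusted p = 1.63e-07), and by 0.99 without rimonabant replicate 1 or without TXX-1-10 replicate 1, which ends the call at the fold threshold.

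KLF10 gave 17.9, 19.2 and 17.2 FPKM under vehicle, 23.2, 23.5 and 22.6 with rimonabant and 27.6, 28.8 and 29.3 with TXX-1-10. The groups were separate, in the same order as for JUN. KLF10 rose by 0.35 under rimonabant (0.23 to 0.47, adjusted p = 0.000458) and by 0.66 under TXX-1-10 (0.54 to 0.78, adjusted p = 1.30e-06), and the compounds differed by 0.31 (0.19 to 0.42, adjusted p = 0.000486). KLF4 was at 0.373 ± 0.0393 of the KLF6 level with vehicle, 0.687 ± 0.0541 with rimonabant and 1.14 ± 0.0996 with TXX-1-10, so that their order turned under TXX-1-10. This ratio also sets a shorter gene over a longer one and was highest in the libraries that stand apart by gene length. It was 0.749 in rimonabant replicate 1 beside 0.653 and 0.659, and 1.25 in TXX-1-10 replicate 3 beside 1.05 and 1.12.

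EGR1 was at 21.9, 22.8 and 24.1 FPKM under vehicle, 47.9, 45.1 and 52.7 with rimonabant and 53.3, 51.8 and 50.9 with TXX-1-10. Treated libraries were all above vehicle and the compounds overlapped. The log2 fold change was 1.08 under rimonabant (0.94 to 1.23, adjusted p = 1.96e-06) and 1.18 under TXX-1-10 (1.04 to 1.32, adjusted p = 7.82e-08). The difference between the compounds was 0.10, with an interval from -0.04 to 0.24 (adjusted p = 0.192), and it passed the test at 0.18 with TMM scaling (adjusted p = 0.0308), at 0.19 with DESeq2 (adjusted p = 0.0108) and at 0.16 without rimonabant replicate 3 (adjusted p = 0.0462).

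MYC was at 74.5, 72.1 and 75.8 FPKM under vehicle, 68.4, 60.5 and 64.7 with rimonabant and 94.5, 94.7 and 102 with TXX-1-10. As for KLF6 and FOSL1, rimonabant libraries were all below and TXX-1-10 libraries all above vehicle. MYC fell by 0.20 under rimonabant (-0.33 to -0.07, adjusted p = 0.0147), a call lost without vehicle replicate 3 (adjusted p = 0.054) or without rimonabant replicate 2 (adjusted p = 0.0519), and rose by 0.39 under TXX-1-10 (0.26 to 0.52, adjusted p = 0.000115). The compounds differed by 0.59 (0.46 to 0.72, adjusted p = 9.34e-06).

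In the libraries that stand apart, the 3 shortest genes, JUNB, JUND and FOSL1, were 1.06, 1.23 and 1.06 times the mean of the other replicates in rimonabant replicate 1, and 1.15, 1.29 and 1.02 times in TXX-1-10 replicate 3. The longest, FOSL2 at 7157 bases and KLF6 at 6139 bases, were at 0.853 and 0.922 of it in the former and 0.852 and 0.901 in the latter. KLF4, KLF10 and JUN lay between 1.01 and 1.05, EGR1 at 3138 bases was at 0.98 and 0.968, and MYC at 3001 bases was at 1.09 and 1.08, above the shorter FOSL1 in both libraries and above JUNB in rimonabant replicate 1. The part of this in the results was tested only by leaving these libraries out, since the gene length correction among the alternatives also moved the median of all genes under TXX-1-10 from -0.095 to 0.002. With that correction JUND was at 1.70 and FOSL2 at -1.03 under TXX-1-10 on the log2 scale, beside 1.65 and -1.02 with TMM, which has no length term.

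**Figure D4:**
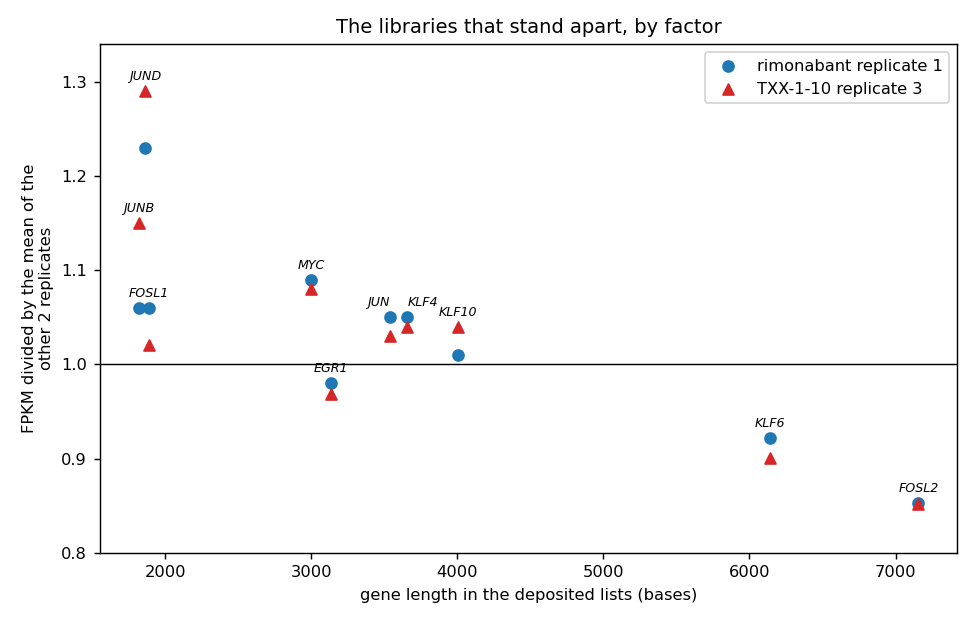
For each factor, the FPKM in rimonabant replicate 1 (circles) and in TXX-1-10 replicate 3 (triangles) is divided by the mean of the other 2 replicates of its group (vertical axis, not from 0) and set against gene length in bases. JUND lies highest at 1.23 and 1.29, and FOSL2, the longest gene, lowest at 0.853 and 0.852.

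The genes whose log2 FPKM followed each factor most closely over the 9 libraries were found by Pearson's r among the 4236 tested genes, as a description. JUN was followed by TMEM132A (r = 0.9984), NAB2 (0.9971), a corepressor of EGR factors, and PHF1 (0.9953). JUNB was followed by ABTB1 (0.9989), PNRC1 (0.9978) and GNPDA1 (0.9968), and JUND by CXXC1 (0.9983), KCTD5 (0.9947) and OTUD5 (0.9941). FOSL1 ran with EEF2 (0.9923), MLPH (0.99) and SYMPK (0.9846), and FOSL2 with ZMYND8 (0.9972), TNS3 (0.9969) and SPTAN1 (0.9963). The nearest genes to KLF4 were ATP6V1B2 (0.9981), a subunit of the vacuolar proton pump, WASHC2A (0.9968) and VPS11 (0.9961), which acts in traffic to lysosomes. KLF6 was nearest to ICAM1 (0.9961), ATP2B1 (0.9959) and MGLL (0.9957), and KLF10 to C12orf49 (0.9956), PLEKHB2 (0.994) and TMEM41B (0.9938). EGR1 was nearest to CAPN7 (0.9912), STARD4 (0.989) and SH3BP5L (0.9883), and MYC to ERF (0.9912), GAS5 (0.9908) and EEF1A1P5 (0.9877), the last a pseudogene whose reads may belong to near-identical copies. The libraries share treatments and depth, and nothing about shared control follows from r.

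Other genes of the same families were read from the fit of 8 libraries without rimonabant replicate 1, which covers 9369 genes. In it, 5.28% of genes were changed upward and 7.39% downward under TXX-1-10, with 34.7% and 40.6% passing the test in each direction, and 0.736% and 0.758% were changed under rimonabant, with 23.7% and 22.8% passing. The median log2 fold change over all genes was -0.04 under TXX-1-10 and 0.00 under rimonabant.

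Of 12 other AP-1 and ATF partners, 11 were tested, and 8 passed the test as higher and 0 as lower under TXX-1-10 (median 0.54), with 4 changed upward. Under rimonabant 7 passed as higher and 1 as lower (median 0.36), with 2 changed upward. JDP2, a repressive partner of JUN, went from 2.41 FPKM ± 0.315 under vehicle to 5.34 ± 0.0763 (n = 2) with rimonabant and 9.69 ± 0.843 with TXX-1-10, giving a log2 rise of 1.15 and 2.01. ATF3, a stress-induced factor, rose by 1.23 and 1.92, MAFG by 0.90 and 1.72 and MAFF by 0.82 and 1.28. FOS, the classic partner of JUN, did not pass the test under TXX-1-10 at 21.7 FPKM ± 0.455 against 21.7 ± 0.842 (log2 fold change 0.00, adjusted p = 0.992) and rose by 0.32 under rimonabant (adjusted p = 0.000817). FOS was chosen after its values were seen.

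Of 15 other KLF and SP factors, 12 were tested. Under TXX-1-10, 9 passed as higher and 1 as lower (median 0.81), with 6 changed upward, while under rimonabant 3 passed as higher and 2 as lower (median 0.11) and 0 were changed. KLF2, known from quiescent endothelium and T cells, was at 6.73 FPKM ± 0.466 under vehicle and 25.8 ± 3.27 under TXX-1-10, a log2 rise of 1.94. KLF13 rose by 1.85, KLF7 by 1.47 and KLF3 by 1.14.

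Of 5 genes that are EGR relatives or their NAB corepressors, 2 were tested. NAB2, which EGR1 is known to induce and which represses EGR factors in turn, rose by 1.09 with TXX-1-10, from 14.5 FPKM ± 0.353 to 30.8 ± 0.898, and by 0.58 with rimonabant. NAB1 rose by 0.26 under rimonabant and fell by 0.24 under TXX-1-10. EGR2, EGR3 and EGR4 are beyond the end of several lists.

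In the MAX network and MYC turnover list, 14 of 16 genes were tested, and 6 passed as higher and 4 as lower under TXX-1-10 (median 0.16), with 2 changed upward and 1 downward. Under rimonabant 3 passed as higher and 2 as lower, and 0 were changed. MXD1 and MXD4, which pair with MAX and repress where MYC activates, rose by 2.16 and 1.87 under TXX-1-10 and by 0.82 and 0.99 under rimonabant. MXD3 went the other way, passing the test as lower at -0.61 under TXX-1-10 and not passing at -0.19 under rimonabant, and was named after its values were seen. MXD4 went from 8.26 FPKM ± 0.285 to 30.2 ± 0.270 under TXX-1-10. MNT, of the same repressive group, had a log2 value of 0.99 under TXX-1-10 and 0.00 under rimonabant. MYCBP, a MYC-binding protein, fell by 1.46 under TXX-1-10.

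Of 22 other immediate-early genes and their feedback, 19 were tested. Under TXX-1-10, 15 passed as higher and 1 as lower (median 1.01), with 10 changed upward, and under rimonabant 12 passed as higher and 1 as lower (median 0.18), with 1 changed upward. BTG1, an antiproliferative gene, rose by 2.41 under TXX-1-10 and 0.95 under rimonabant. PPP1R15A, which restores translation after stress, was at 94.0 FPKM ± 2.15 under vehicle and 291 ± 12.3 under TXX-1-10, a rise of 1.63, and it rose by 1.12 under rimonabant. IER3 rose by 1.49 and DUSP5, an ERK phosphatase, by 1.40 under TXX-1-10. Of the JNK, ERK and p38 pathway kinases above these genes, 15 were tested and 0 were changed under either compound, beside 5.28% of all genes changed upward and 7.39% downward under TXX-1-10 and 0.736% and 0.758% under rimonabant, with 3 passing as higher and 8 as lower under TXX-1-10 and 4 and 4 under rimonabant. By size, MAP3K5 was at -0.79, BRAF at 0.67 and MAP3K1 at -0.53 under TXX-1-10.

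Textbook AP-1 targets went both ways. Of 17 genes, 12 were tested, with 8 passing as higher and 3 as lower under TXX-1-10 (median 0.70), of which 5 were changed upward and 2 downward. MMP3, MMP9, MMP13, IL6 and SPP1 were not in enough lists to be tested. Of these, IL6 was at 3.9 FPKM ± 0.116 (n = 2) with vehicle, 1.33 ± 0.0038 (n = 2) with rimonabant and 2.05 ± 0.321 with TXX-1-10. MMP3, MMP9 and SPP1 had at most 33 reads in any list that names them, and MMP13 was in none. Under rimonabant 8 passed as higher and 3 as lower (median 0.30), with 2 changed upward. MMP1, a collagenase, rose from 0.739 FPKM ± 0.106 under vehicle to 4.68 ± 0.205 (n = 2) with rimonabant and 25.2 ± 2.05 with TXX-1-10, giving a log2 rise of 2.66 and 5.08. Its vehicle counts were only 24, 22 and 29 reads, and its vehicle mean was under the fit's minimum of 1 for the mean FPKM. MMP1 thus entered the fit through the treated libraries, where it was high. HMOX1, a haem-degrading stress enzyme, rose by 0.91 and 3.21, CXCL8 by 1.80 and 1.54 and VEGFA by 0.36 and 1.5. The 2 changed downward under TXX-1-10 were PLAU at -1.12 and CCND1 at -1.06, named after their values were seen.

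Textbook MYC targets were mostly lower, also under TXX-1-10 where MYC itself rose. All 20 were tested, and 17 passed as lower and 1 as higher under TXX-1-10 (median -0.73), with 5 changed downward, while 15 passed as lower and 1 as higher under rimonabant (median -0.31), with 0 changed. LDHA, a glycolytic enzyme, went from 242 FPKM ± 4.07 under vehicle to 54.4 ± 4.29 under TXX-1-10 and fell by 2.15 on the log2 scale. TFRC, the transferrin receptor, fell by 1.36, NOP56, a ribosome assembly protein, by 1.33 and NME1 by 1.29. SHMT2 was the gene that passed as higher, at 0.79, and was named after its values were seen. Whether these genes respond to MYC in this line was not tested.

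**Figure D5:**
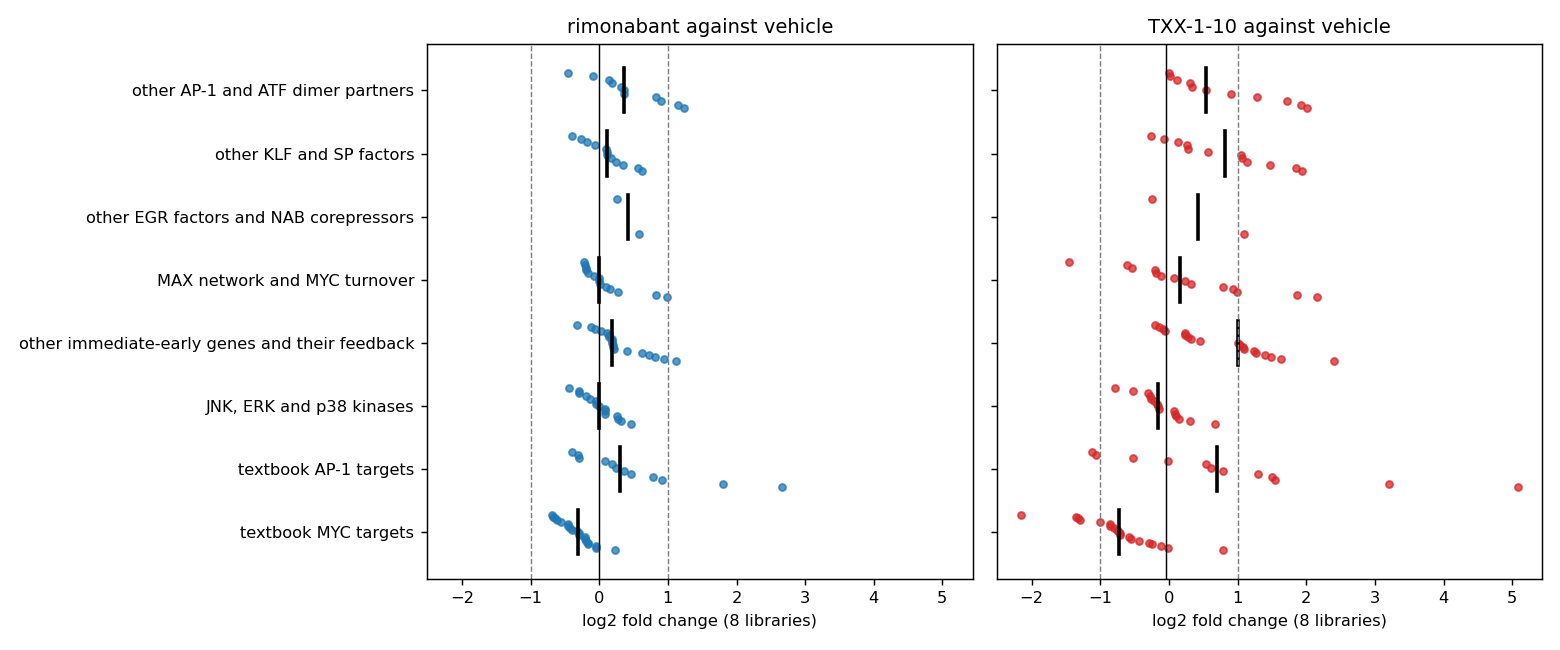
Each point is a gene of a list (vertical axis) placed at its log2 fold change (horizontal axis) under rimonabant (left) or TXX-1-10 (right) against vehicle in the fit of 8 libraries, with a thick bar at the list's median, a thin line at the median of all genes and dashed lines at -1 and 1. Under TXX-1-10 the median is 1.01 for other immediate-early genes and -0.73 for textbook MYC targets.

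The lists also assign other genes to the families of these factors, read here from the fit of 9 libraries, in which 30.5% of all genes passed the test as higher and 43.8% as lower under TXX-1-10, with 4.2% changed upward and 7.6% downward. Of the 15 other tested bZIP genes, 8 passed as higher and 4 as lower, with 3 changed upward and 2 downward. Of the 35 other C2H2 zinc finger genes, 20 passed as higher and 2 as lower, with 1 changed upward and 0 downward. This fit holds only 3 of the 15 other KLF and SP factors, because the shortest list ends early. In the fit of 8 libraries 12 of those 15 were tested, and 6 were changed upward and 0 downward under TXX-1-10. Of the 14 other bHLH genes, 5 passed as higher and 6 as lower, near the shares of all genes, with 2 changed upward and 2 downward. Differences between the factors and these genes were not tested.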

How the data were processed

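RNA of 9 libraries was sequenced by the authors after oligo(dT) selection and NEBNext Ultra library preparation. The submitters' processing notes name HISAT2 2.0.5 and featureCounts 1.5.0-p3. For each gene the authors deposited a whole-number count without normalization and an FPKM value, which scales that count to gene length and to a total for the library. This total, worked out from count, FPKM and length, served as library size. Each list as used here ends partway through a line, in a gene order from high to low counts, so that low genes were left out and a gene beyond the end of a list is not a 0.

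Counts of the 4236 genes in all 9 lists whose mean FPKM was 1 or more were tested with edgeR 4.0.16 in R 4.3.3 (glmQLFit and glmQLFTest, all groups in a single fit, Benjamini-Hochberg adjustment over all genes of a comparison), and gene lists in the same way over 9369 genes of 8 libraries. The standard error behind the 95% intervals is the log2 fold change divided by the square root of F and is approximate. Low counts carry more sampling noise than high ones, and the factors had 609 to 10580 reads. Named genes are the 10 factors, up to 4 genes of each list by size of change, with called genes first, and the 3 nearest genes to each factor. The factors and lists were chosen with earlier results of these data known. Alternatives were TMM, DESeq2 1.42.0, median scaling, limma 3.58.1 on log2(FPKM + 1) and log2(FPKM + 0.1), other FPKM minimums, a gene length correction, a replicate block, fits of 2 groups and leaving out libraries. The fits were tested on simulated data. Tables and plots used Python 3.11.15, pandas 2.3.3 and matplotlib 3.10.9.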

Additional observations from a re-analysis of the deposited data

How the results depend on the processing

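Each log2 fold change of the 10 factors was recomputed under 22 alternatives, giving 660 values. None turned direction, 651 stayed on their side of the test's threshold, 3 lost it (KLF6 and MYC under rimonabant, each without a library) and 6 gained it (EGR1 between the compounds, with TMM, DESeq2, median scaling at 0.19, gene length correction at 0.23, that correction with the replicate block at 0.24, and without rimonabant replicate 3). The number of factors changed under rimonabant was 2 and became 1, with FOSL2 lost at the fold threshold, with limma on log2(FPKM + 1), genes listed for 8 libraries, gene length correction, that correction with the replicate block, and without both libraries that stand apart. With single libraries left out, the number changed was 1 to 2 under rimonabant, 2 to 3 between the compounds and 5 under TXX-1-10. Scaling by TMM moved the median log2 fold change of all genes under TXX-1-10 from -0.095 to 0.004. The labels do not say whether the replicate numbers pair the libraries. Same-numbered libraries had correlations of -0.789 to 0.8 in their deviations, and 1 of 9 libraries correlated best with its own number in both other groups. These deviations also hold the gene length trend of the rimonabant and TXX-1-10 libraries, so the correlations cannot settle the pairing. With the replicate block the changed factors numbered 5 under TXX-1-10, 2 under rimonabant and 2 between the compounds, where the unblocked fit gave 3 and JUNB is the call lost. Between the compounds the number was also 2 with both limma fits and without both libraries that stand apart, each without JUNB, and with genes listed for 8 libraries, without KLF6. Lists that end early, 3 libraries a group and unstated dose and time limit what these values cover.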
